A study of Mus musculus with 36 samples.

Results

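Chemokine receptors are G protein-coupled receptors at the cell surface that let leukocytes sense gradients of small secreted proteins, the chemokines. Of these receptors, Ccr1, Ccr2, Cx3cr1, Cxcr2 and Cxcr4 were followed across sorted mouse macrophages and monocytes. They were chosen by name as the genes with a probe set that carries only their symbol, and each had 1 such probe set. They are 5 of 19938 genes with a symbol of their own on the array and 5 of the 12244 genes that were bright enough to test.

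The study put cells of different origin into the airways of newborn Csf2rb-/- mice, which lack a receptor chain for GM-CSF and so have few alveolar macrophages of their own, and compared the resulting lung macrophages with the cells put in and with native cells. All groups were C57BL/6 mice with 4 arrays each, from samples that the labels call biological replicates, 36 arrays in all. YS-derived, FL-derived, BM-derived and AM-derived macrophages were sorted from lung lavage 6 weeks after intranasal transfer. The wild-type donor cells carried CD45.1+CD45.2+ and were macrophages of the yolk sac, monocytes of the fetal liver, monocytes of adult bone marrow or alveolar macrophages. Native alveolar macrophages came from lavage of wild-type mice, either adult at 6 to 12 weeks or 6 weeks old and so matched in age to the recipients. The cells before transfer were yolk sac macrophages of embryonic day E12.5, fetal liver monocytes of day E15.5 and bone marrow monocytes of adults of 6 to 12 weeks. All transferred cells lived in Csf2rb-/- hosts and all native ones in wild-type mice, so transfer and host cannot be told apart. Embryonic tissues were digested with collagenase, marrow cells were freed by crushing bones, and cells were purified by flow cytometry with markers of which the sources used here give only CD45.

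Ccr2 binds Ccl2 and its relatives and is known for guiding classical monocytes out of the bone marrow. Cx3cr1, the receptor of the membrane-bound chemokine Cx3cl1, marks yolk sac macrophages, microglia and patrolling monocytes. Ccr1 binds Ccl3, Ccl5, Ccl6 and Ccl9, Cxcr2 binds the neutrophil attractants Cxcl1, Cxcl2 and their relatives, and Cxcr4 binds Cxcl12, which holds haematopoietic cells in the marrow.

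Values are log2 intensities, so that a step of 1 is a doubling. The median of the whole table, 4.623, served as the level of a dim probe set. Array medians lay between 4.544 and 4.732, and each array correlated with the others of its group at a mean r between 0.9634 and 0.982. The averages of the marker lists differed between the labelled cell types. The mean over 9 alveolar macrophage markers, among them Siglecf, Car4 and Fabp4, was 10.01 to 10.68 per array in the 6 alveolar groups and 4.49 to 4.96 in the 3 precursor groups. The mean over 9 fetal tissue macrophage markers, among them Lyve1, Timd4 and Mrc1, was 10.33 to 10.48 in yolk sac macrophages and 4.28 to 5.84 in the other groups. Of those 9, Mrc1 and Dab2 were also high in the alveolar groups, with group means of 10.61 to 11.06 and 10.87 to 11.19. The mean over 7 monocyte markers was 5.59 to 5.97 in yolk sac macrophages, against 10.55 to 10.91 in fetal liver and 11.03 to 11.47 in bone marrow monocytes. One of these, F13a1, did not separate them, with means of 11.2 in yolk sac macrophages, 10.83 in fetal liver and 11.4 in bone marrow monocytes. Markers of other cells were also present. A list of 14 neutrophil markers averaged 6.99 to 7.62 in fetal liver and 6.92 to 8.31 in bone marrow monocytes, although Ly6g, Mmp9 and Retnlg lay below the table median in both. Of 6 progenitor markers, Cd34 (8.92) and Myb (5.59) lay above the table median in fetal liver monocytes and 4 below it. The B cell marker Cd79b averaged 8.62 in yolk sac macrophages, 7.84 in fetal liver and 6.52 in bone marrow monocytes, while 3 of 4 B cell markers lay below the table median in each. Nkg7, of T and NK cells, averaged 5.6 in fetal liver and 6.58 in bone marrow monocytes, where 5 of 7 markers of its list lay below. The mean over 5 erythroid genes was 6.44 to 7.18 in yolk sac macrophages and 3.72 to 4.31 elsewhere. The embryonic globins Hbb-y, Hba-x and Hbb-bh1 were raised there, while Alas2 (4.14) and Klf1 (3.76) lay below the table median in yolk sac macrophages.

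The promoters of the 3 receptors whose levels differed most between precursors or moved most over transfer are shown as background to those results, from RefSeq on GRCm38.p6, each 300 bases long. Those of Cx3cr1 and Cxcr2 begin before the gene record and reach just past its start, while that of Ccr2 begins 15 bases inside the gene record and lies within it. All 5 receptors matched. Capitals mark GAGGAA, the core of the site of the macrophage factor PU.1, on either strand.
Ccr2 promoter, chr9:124101933-124102232, plus strand: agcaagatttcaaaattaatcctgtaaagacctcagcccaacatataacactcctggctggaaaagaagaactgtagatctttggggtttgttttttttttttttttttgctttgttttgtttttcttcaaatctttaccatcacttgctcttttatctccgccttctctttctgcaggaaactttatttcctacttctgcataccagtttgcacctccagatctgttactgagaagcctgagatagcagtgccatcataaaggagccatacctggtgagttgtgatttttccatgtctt
Cx3cr1 promoter, chr9:120068247-120068546, minus strand: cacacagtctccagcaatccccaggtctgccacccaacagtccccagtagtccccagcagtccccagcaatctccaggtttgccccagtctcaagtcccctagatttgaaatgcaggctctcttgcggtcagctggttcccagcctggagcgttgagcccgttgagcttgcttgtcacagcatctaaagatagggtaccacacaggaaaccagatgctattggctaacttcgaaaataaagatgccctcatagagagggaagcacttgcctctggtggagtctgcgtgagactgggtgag
Cxcr2 promoter, chr1:74153744-74154043, plus strand: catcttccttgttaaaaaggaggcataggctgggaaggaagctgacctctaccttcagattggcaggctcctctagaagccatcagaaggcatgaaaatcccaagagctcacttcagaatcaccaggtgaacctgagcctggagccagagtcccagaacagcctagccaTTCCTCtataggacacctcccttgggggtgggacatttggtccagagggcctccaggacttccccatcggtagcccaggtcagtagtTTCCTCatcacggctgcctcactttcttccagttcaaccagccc
A set of 5 motifs was searched on both strands in the 5 promoters: GAGGAA, TTGCNNAA for C/EBP factors, TGANTCA for AP-1, the DR1 motif of nuclear receptor pairs such as PPAR gamma with RXR, and CACGTG for E-box factors. GAGGAA was found in 2 of the 5, at 2 places in Cxcr2 (TTCCTC as printed, beginning at -81 and 7 from the gene's start) and once in Ccr1 (at -129). None of the other 4 motifs was found in any. Among 32851 promoters of the same length, 28.3% held GAGGAA, 10.8% TTGCNNAA, 7.81% TGANTCA, 0.0396% DR1 and 7.15% CACGTG. A match is a description of these letters and not a bound site.

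**Figure D1:**
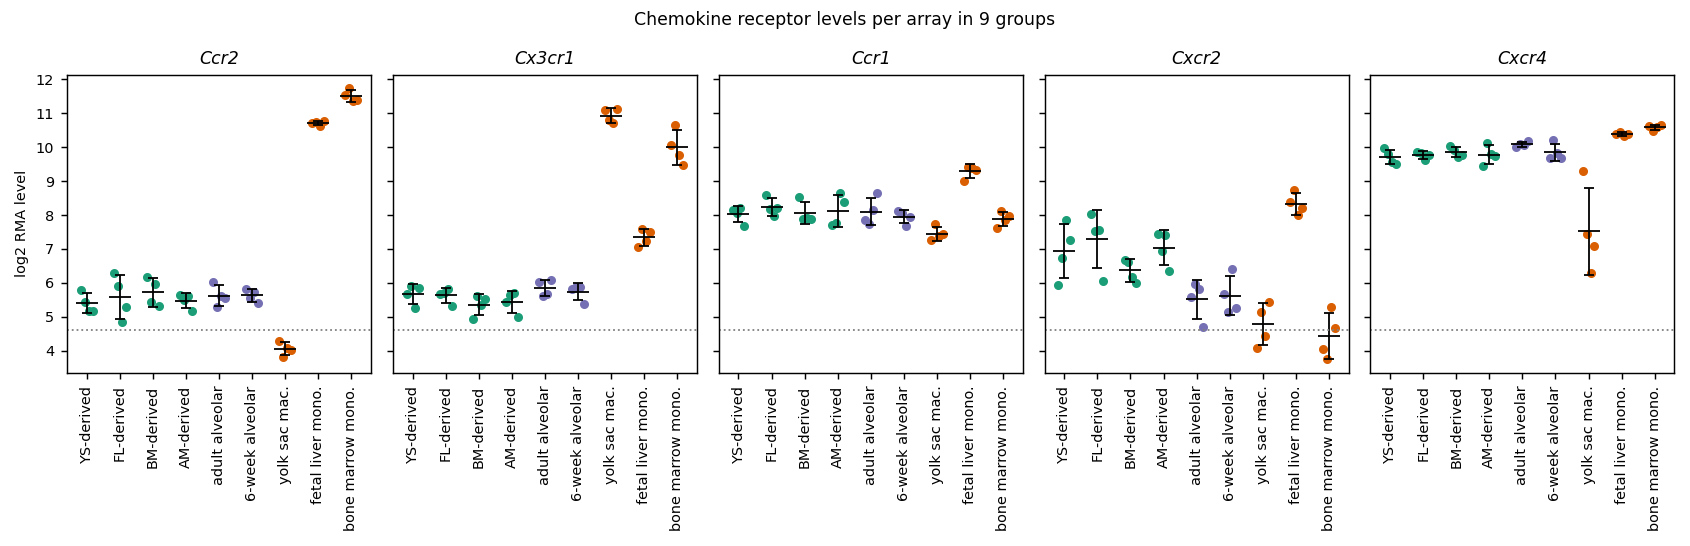
Log2 intensity of the 5 receptors on each array (dots) in the 9 groups of 4, with the mean ± SD as a black bar and the table median of 4.62 as a dotted line. Green marks derived, purple native alveolar macrophages and orange the cells before transfer. The 6 alveolar groups spread most for Cxcr2. Yolk sac macrophages are lowest for Ccr2 and Cxcr4 and highest for Cx3cr1, and fetal liver monocytes are highest for Ccr1 and Cxcr2.

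Before transfer, the 3 precursors differed in most of these receptors. All 5 passed the test between yolk sac macrophages and fetal liver monocytes, where 33.1% of all genes tested did. Between yolk sac macrophages and bone marrow monocytes 3 of 5 passed, against 42.2% of all genes. Between fetal liver and bone marrow monocytes 4 of 5 passed, against 19.5% of all genes. The standard error (SE) of a log2 difference between 2 groups was 0.2 for Ccr1 and Cx3cr1, 0.22 for Ccr2, 0.4 for Cxcr2 and 0.3 for Cxcr4. Throughout, a gene passed at a Benjamini-Hochberg adjusted p under 0.05 in limma's moderated linear model over all 36 arrays.

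Ccr2 separated yolk sac macrophages from both monocytes. It measured 4.29, 3.83, 4.08 and 4.03 in yolk sac macrophages, all below the table median. Fetal liver monocytes had 10.71, 10.73, 10.63 and 10.78, and bone marrow monocytes 11.53, 11.74, 11.37 and 11.38. Counting yolk sac macrophages at the table median, Ccr2 was at least 68.1-fold lower there than in fetal liver monocytes (limma, adjusted p = 5.76e-23) and at least 118-fold lower than in bone marrow monocytes (adjusted p = 2.25e-24). The 2 monocytes differed by far less, with fetal liver below bone marrow by a log2 difference of -0.79 ± 0.22 (SE; adjusted p = 0.00748) and no overlap of the arrays.

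After transfer, Ccr2 was low in the macrophages of every origin. YS-derived macrophages had 5.8, 5.44, 5.18 and 5.16, FL-derived 6.28, 5.92, 4.84 and 5.29, BM-derived 6.18, 5.44, 5.96 and 5.31, and AM-derived 5.65, 5.5, 5.6 and 5.17. Native adult macrophages had 6.03, 5.28, 5.6 and 5.56 and native 6-week ones 5.83, 5.55, 5.72 and 5.41. These 24 arrays spanned 4.84 to 6.28 and the groups overlapped. Against its own precursor, Ccr2 was 35-fold lower in FL-derived macrophages (limma, adjusted p = 9.58e-20) and 55-fold lower in BM-derived ones (adjusted p = 3.22e-21). In YS-derived macrophages it was instead higher than in yolk sac macrophages, at least 1.71-fold (adjusted p = 4.02e-06). The changes of yolk sac and fetal liver origin differed (adjusted p = 5.14e-18), by 5.9 on the log2 scale with yolk sac macrophages counted at the table median. In a bulk sample fewer cells of a type and less RNA per cell cannot be told apart, for Ccr2 and for the receptors that follow.

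Cx3cr1 was highest in yolk sac macrophages and lowest of the precursors in fetal liver monocytes. Yolk sac macrophages had 11.09, 10.79, 10.71 and 11.11, fetal liver monocytes 7.06, 7.58, 7.23 and 7.49, and bone marrow monocytes 10.06, 10.66, 9.77 and 9.46. No arrays of the 3 groups overlapped. Yolk sac macrophages were 12-fold above fetal liver monocytes (limma, adjusted p = 3.63e-16) and 1.92-fold above bone marrow monocytes (adjusted p = 0.00033). Fetal liver monocytes were 6.26-fold below bone marrow monocytes (adjusted p = 8.81e-12).

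Over transfer Cx3cr1 fell from every origin, by unequal amounts. YS-derived macrophages had 5.67, 5.91, 5.25 and 5.85, FL-derived 5.67, 5.71, 5.82 and 5.31, and BM-derived 4.93, 5.61, 5.36 and 5.54. That is 38.2-fold below yolk sac macrophages (limma, adjusted p = 6.69e-21), 3.28-fold below fetal liver monocytes (adjusted p = 1.81e-08) and 24.7-fold below bone marrow monocytes (adjusted p = 3.27e-19). The fall was larger from yolk sac than from fetal liver by -3.54 ± 0.29 (adjusted p = 8.36e-12), and smaller from fetal liver than from bone marrow by 2.91 ± 0.29 (adjusted p = 8.49e-09). The yolk sac and bone marrow falls differed by -0.63 ± 0.29, short of the threshold (adjusted p = 0.0986). That difference passed without replicate 2 of the bone marrow monocytes (-0.86, adjusted p = 0.0151) and without replicate 1 of the BM-derived macrophages (-0.77, adjusted p = 0.0452). AM-derived macrophages had 5.45, 5.63, 5.71 and 4.99, and native macrophages 5.37 to 6.08 over 8 arrays.

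Ccr1 stood out in 1 group. Yolk sac macrophages had 7.25, 7.74, 7.38 and 7.45. Fetal liver monocytes had 8.99, 9.42, 9.4 and 9.33, above every array of all other groups, and bone marrow monocytes 7.62, 8.11, 7.84 and 7.96. Yolk sac macrophages were 3.57-fold below fetal liver monocytes (limma, adjusted p = 3e-09), and fetal liver monocytes 2.65-fold above bone marrow monocytes (adjusted p = 2.5e-06). Between yolk sac macrophages and bone marrow monocytes the difference was -0.43 ± 0.2 with overlapping arrays (adjusted p = 0.0817). A fit to the groups compared alone called it at adjusted p = 0.041.

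The 24 alveolar arrays spanned 7.68 to 8.65 for Ccr1. FL-derived macrophages, at 8.6, 8.19, 7.96 and 8.21, were 2.06-fold below fetal liver monocytes (limma, adjusted p = 5.9e-05). YS-derived macrophages, at 8.15, 8.07, 8.2 and 7.68, were 1.49-fold above yolk sac macrophages with overlapping arrays (adjusted p = 0.0194). That call was lost without yolk sac replicate 1 (adjusted p = 0.0635) or YS-derived replicate 1 (adjusted p = 0.0514) or 3 (adjusted p = 0.0592). BM-derived macrophages, at 8.53, 7.89, 7.91 and 7.87, differed from bone marrow monocytes by 0.17 ± 0.2 (adjusted p = 0.541). The changes from yolk sac and fetal liver differed by 1.62 ± 0.28 (adjusted p = 3.49e-05).

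Cxcr2 was high in fetal liver monocytes and low in the other precursors. Yolk sac macrophages had 4.09, 5.15, 4.43 and 5.44, fetal liver monocytes 8.37, 8.75, 7.99 and 8.21, and bone marrow monocytes 4.05, 3.75, 5.28 and 4.67. Both low groups had 2 of 4 arrays above the table median. Fetal liver monocytes were at least 13.1-fold above bone marrow monocytes (limma, adjusted p = 5.75e-09), and yolk sac macrophages 11.7-fold below fetal liver monocytes (adjusted p = 6.96e-09). The neutrophil list did not separate the 2 monocytes as Cxcr2 did. It averaged 6.99, 7.62, 7.23 and 7.19 on the fetal liver arrays and 7.53, 6.92, 7.81 and 8.31 on the bone marrow arrays, in the same array order as the Cxcr2 values above. Of its genes, Mpo, Elane, Prtn3 and Cebpe were higher and Ngp, Camp and Cd177 lower in fetal liver than in bone marrow monocytes, and its part in the Cxcr2 difference was not tested.

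Cxcr2 was the receptor on which the alveolar groups spread most. YS-derived macrophages had 5.94, 6.73, 7.84 and 7.27, FL-derived 8.02, 7.53, 7.57 and 6.05, BM-derived 6.68, 6.62, 6.16 and 6.01, and AM-derived 7.45, 6.94, 7.4 and 6.35. Native adult macrophages had 5.57, 5.98, 5.82 and 4.7, and native 6-week ones 5.68, 5.15, 6.41 and 5.25. The 16 derived arrays ran from 5.94 to 8.02 and the 8 native ones from 4.7 to 6.41. In the derived groups 9 or 10 of the 14 neutrophil markers lay below the table median, against 9 in each native group. The list averaged 4.29 to 4.6 per derived and 4.41 to 4.74 per native array. Of its brighter genes, Mmp8 had group means of 8.39 to 9.35 in derived and 7.95 and 8.05 in native macrophages. Csf3r went the other way, at 5.37 to 6.03 in derived and 6.16 and 6.29 in native macrophages. The part of neutrophils in the Cxcr2 levels was not tested.

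Against their precursors, YS-derived macrophages had 4.49-fold more Cxcr2 than yolk sac macrophages (limma, adjusted p = 3.44e-05) and BM-derived ones at least 3.35-fold more than bone marrow monocytes (adjusted p = 0.000204). FL-derived macrophages had 2.05-fold less than fetal liver monocytes with overlapping arrays (adjusted p = 0.0389), a call lost without FL-derived replicate 4 (log2 difference -0.62, adjusted p = 0.236) and without fetal liver replicate 1, 2 or 4. The changes from yolk sac and fetal liver differed by 3.2 ± 0.57 (adjusted p = 4.4e-05), and those from fetal liver and bone marrow differed too (adjusted p = 0.000515), by -2.78 with bone marrow monocytes counted at the table median.

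Cxcr4 was lowest in yolk sac macrophages, and uneven there. They had 9.31, 7.43, 6.28 and 7.08, an SD of 1.28, although each array's mean correlation with its group was 0.981 or 0.982. Fetal liver monocytes had 10.39, 10.46, 10.34 and 10.38, and bone marrow monocytes 10.61, 10.47, 10.6 and 10.65. Yolk sac macrophages were 7.31-fold below fetal liver monocytes (limma, adjusted p = 1.65e-09) and 8.33-fold below bone marrow monocytes (adjusted p = 3.19e-10). Without yolk sac replicate 1, the highest of the 4, the log2 differences moved to -3.46 (-2.87 with it) and -3.65 (-3.06 with it). The log2 difference of fetal liver from bone marrow monocytes was -0.19 ± 0.3 (adjusted p = 0.747), with arrays that did not overlap.

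All 24 alveolar arrays had Cxcr4 between 9.44 and 10.21. YS-derived macrophages, at 9.98, 9.8, 9.55 and 9.49, were 4.54-fold above yolk sac macrophages (limma, adjusted p = 2.97e-07), a log2 difference of 2.18 that became 2.78 without yolk sac replicate 1. FL-derived macrophages, at 9.87, 9.82, 9.61 and 9.78, lay below every fetal liver array by -0.62 ± 0.3, and BM-derived ones, at 10.04, 9.93, 9.7 and 9.77, below every bone marrow array by -0.72 ± 0.3. Neither passed in the fit over all arrays (adjusted p = 0.106 and 0.0604), whose estimate of the spread includes the yolk sac arrays. Both passed when only the groups compared were fitted (adjusted p = 0.00126 and 0.000844). The changes from yolk sac and fetal liver differed by 2.81 ± 0.43 (adjusted p = 4.39e-06), and by 3.4 without yolk sac replicate 1.

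**Figure D2:**
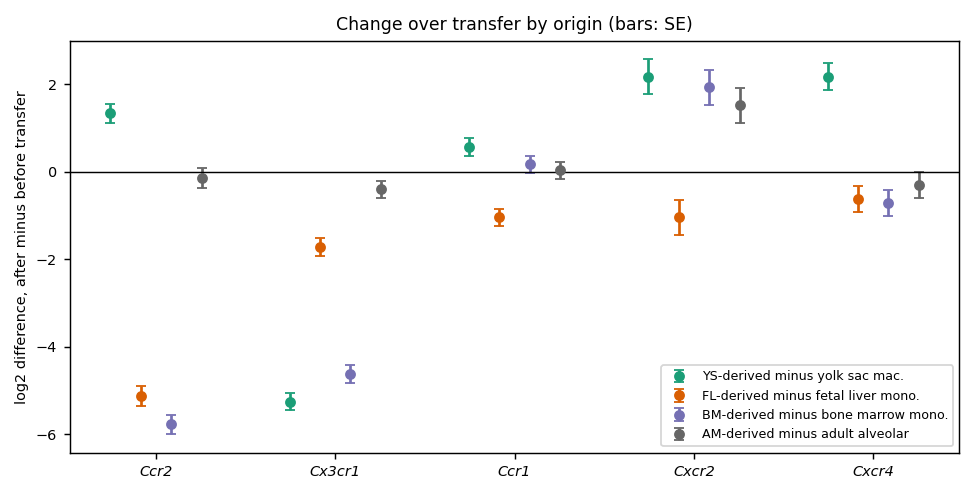
Log2 difference of each receptor after transfer minus before it, ± SE, for the 4 origins. Ccr2 falls from fetal liver and bone marrow and is higher from yolk sac, Cx3cr1 falls from all 3 precursors, and the AM-derived macrophages lie near 0 except for Cxcr2.

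Counted over the receptors, YS-derived macrophages differed from yolk sac macrophages in 5 of 5, where 42.9% of all genes did, with 4 higher (19.6% of all genes) and 1 lower (23.2%). FL-derived macrophages differed from fetal liver monocytes in 4 of 5, against 38.3% of all genes, and all 4 were lower (18% of all genes). BM-derived macrophages differed from bone marrow monocytes in 3 of 5, against 36.4% of all genes, with 1 higher (20.3%) and 2 lower (16.1%). In AM-derived against native adult macrophages 0 of 5 passed, against 0.702% of all genes, with 1 of 5 at an unadjusted p under 0.05. That was Cxcr2, 2.87-fold higher with no overlap (limma, unadjusted p = 0.000618, adjusted p = 0.0701), and 4.46% of all genes had groups that did not overlap. It passed without AM-derived replicate 4 (adjusted p = 0.0469). The change itself differed between yolk sac and fetal liver origin in 5 of 5 receptors (22.9% of all genes), between yolk sac and bone marrow origin in 2 of 5 (30.6%), and between fetal liver and bone marrow origin in 3 of 5 (9.94%). With no receptor called between derived groups, these counts largely repeat the differences between precursors.

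Against native 6-week macrophages, 1 of 20 differences of the 4 derived groups passed. It was Cxcr2 in FL-derived macrophages, 3.18-fold higher with overlapping arrays (limma, adjusted p = 0.0262), in a comparison where 1.05% of all genes passed. The call was lost when only the groups compared were fitted (adjusted p = 0.149) and without FL-derived replicate 1, 2 or 3 or native replicate 1, 2 or 4. In YS-derived (1.72% of all genes called), BM-derived (1.31%) and AM-derived macrophages (1.07%), 0 of 5 passed in limma, with 1, 0 and 1 at an unadjusted p under 0.05. The Cxcr2 log2 difference was 1.32 ± 0.4 in YS-derived (adjusted p = 0.103), 0.74 ± 0.4 in BM-derived (adjusted p = 0.686) and 1.41 ± 0.4 in AM-derived macrophages (adjusted p = 0.0976). The YS-derived one passed without YS-derived replicate 1 (adjusted p = 0.0254) or native replicate 3 (adjusted p = 0.0498). The 16 differences of the other 4 receptors lay between -0.38 and 0.29, and their 95% intervals between -0.79 and 0.7.

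A comparison of all 16 transferred with all 8 native alveolar arrays was added after the data were seen, as the mean of the 4 derived groups minus the mean of the 2 native groups. Cxcr2 averaged 6.91 in transferred and 5.57 in native macrophages, a log2 difference of 1.34 ± 0.25 (limma, adjusted p = 0.000467), and 16 of 16 transferred arrays lay above the median of the native ones. In this comparison 1 of 5 receptors was called, and 346 genes, 2.83% of those tested. Over 25 settings the Cxcr2 difference ranged from 1.2 to 1.47 with adjusted p from 5.07e-05 to 0.00287. Each setting left out 1 alveolar array or fitted the alveolar groups alone. The filter, centring, prior, array weights and replicate block were not varied for this comparison. The other 4 receptors were not called: Ccr1 differed by 0.09 (adjusted p = 0.918), Ccr2 by -0.08 (adjusted p = 0.938), Cx3cr1 by -0.27 (adjusted p = 0.414) and Cxcr4 by -0.19 (adjusted p = 0.853). The unadjusted p for Cx3cr1 was 0.0406 (limma). Of the 16 transferred arrays, 9 lay above the median of the native ones for Ccr1, 7 for Ccr2, 2 for Cx3cr1 and 1 for Cxcr4. Cxcr1 averaged 7.88 in transferred and 7.51 in native macrophages (adjusted p = 0.272). Transfer and the Csf2rb-/- host cannot be told apart here.

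**Figure D3:**
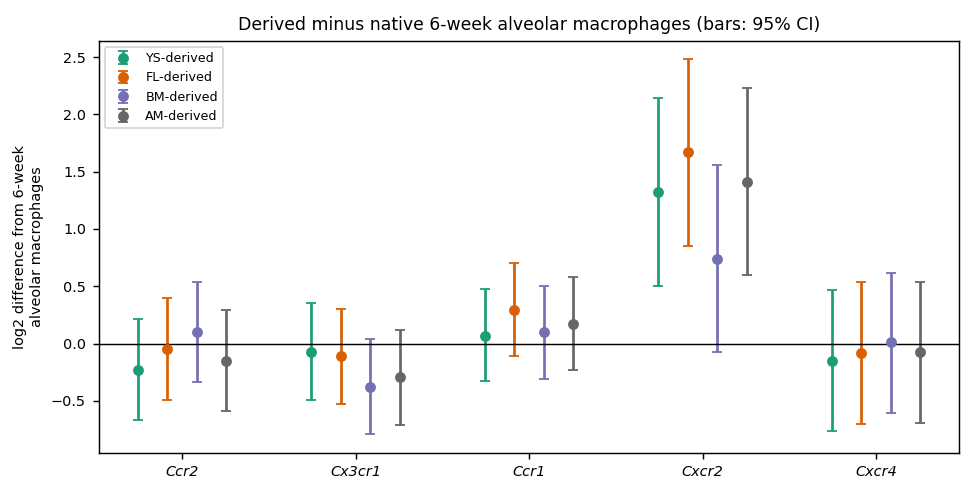
Log2 difference of the derived macrophages minus native 6-week alveolar macrophages, with 95% confidence intervals, for the 5 receptors and 4 origins. The Cxcr2 intervals lie above 0 except for BM-derived macrophages, and those of the other receptors include 0.

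Between the 4 derived groups, 0 of 30 differences passed in limma over 6 comparisons, and 1 had an unadjusted p under 0.05. The share of all genes called was 0.27% for YS-derived against FL-derived, 0.833% for YS-derived against BM-derived, 0.417% for FL-derived against BM-derived, 0.588% for YS-derived, 0.335% for FL-derived and 0.425% for BM-derived against AM-derived macrophages. The 1 was Cxcr2, by 0.92 in FL-derived over BM-derived macrophages (unadjusted p = 0.0277, adjusted p = 0.775). The Cxcr2 intervals reached from -1.48 to 1.74, and those of the other 4 receptors from -0.77 to 0.72, so differences within these bounds were not resolved with 4 arrays a group. Native adult and 6-week macrophages did not differ in a called receptor either, where 0.0163% of all genes were called and 0 of 5 had an unadjusted p under 0.05.

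In the order of group means, few neighbours differed. For Ccr2 the order ran from bone marrow monocytes to fetal liver monocytes, the 6 alveolar groups and yolk sac macrophages, with a difference at each of those steps and none among the 6. For Cx3cr1 it ran from yolk sac macrophages to bone marrow monocytes, fetal liver monocytes and the 6 alveolar groups, of which native adult macrophages came first, 1.49 below fetal liver monocytes (limma, adjusted p = 2.66e-07). For Ccr1 and Cxcr2 the highest group, fetal liver monocytes, differed from the next, FL-derived macrophages, and no other neighbours did. For Cxcr4 only yolk sac macrophages, the lowest, differed from the group above them.

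Of 19 other chemokine receptors, 18 had a probe set of their own and 6 were bright enough to test: Ccr7, Ccr10, Cxcr1, Cxcr3, Cxcr6 and Ccrl2. The group means of Cxcr1, the other receptor of neutrophil-attracting CXC chemokines, covered 3.2 log2 units, those of Cxcr3 2.42, Ccrl2 1.56, Cxcr6 1.15, Ccr7 0.37 and Ccr10 0.34. Over transfer 2 of 6 were higher and 2 lower from yolk sac, with a median of 0.12 against -0.002 over all genes, of which 19.6% were higher and 23.2% lower. From fetal liver 1 was higher and 1 lower with a median of 0.03 against -0.016, where 20.4% of all genes were higher and 18% lower. From bone marrow it was 1 and 1 with a median of -0.07 against -0.017, where 20.3% of all genes were higher and 16.1% lower. Cxcr1 averaged 7.91 in YS-derived macrophages and 5.23 in yolk sac macrophages (limma, adjusted p = 4.05e-11), 7.72 in FL-derived macrophages and 5.38 in fetal liver monocytes (adjusted p = 1.11e-09), and 7.47 in BM-derived macrophages and 5.36 in bone marrow monocytes (adjusted p = 1.18e-08). Cxcr1 thus rose from fetal liver, where Cxcr2 went the other way with overlapping arrays and a call that was lost without some replicates. Cxcr3 had group means above the table median only in the 3 precursors and below it in all 6 alveolar groups. It passed the filter through the precursors, so its falls over transfer, counted above among the lower, were set in advance. It was at least 4.55-fold lower in YS-derived than in yolk sac macrophages (adjusted p = 1.38e-09), at least 1.55-fold lower in FL-derived macrophages than in fetal liver monocytes (adjusted p = 0.0183) and at least 1.78-fold lower in BM-derived macrophages than in bone marrow monocytes (adjusted p = 0.00106). In AM-derived macrophages Cxcr1 was above native 6-week ones by 1.15 ± 0.25 (adjusted p = 0.009).

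Of 15 ligands of the 5 receptors, 12 were tested. Against fetal liver monocytes, yolk sac macrophages had 7 at a higher and 1 at a lower level, with a median log2 difference of 2.07 against -0.008 over all genes, of which 33.1% were called. With group means below the table median raised to it, the median was 1.27. Ccl7, Ccl12 and Ppbp, all among the 7, had group means above the table median only in yolk sac macrophages. They passed the filter through the group where they were high, so their direction in this count was set in advance. The Ccr2 ligands Ccl2, Ccl7 and Ccl12 were among the 7 in the group where Ccr2 lay below the table median. Ccl2 averaged 12.36 in yolk sac macrophages against 7.51 in fetal liver monocytes (limma, adjusted p = 4.88e-15), while Ccl7, at 10.86 in yolk sac macrophages, and Ccl12, at 10.9, lay below the table median in both monocytes. The Cxcr2 ligand Cxcl2 averaged 12.02 in yolk sac macrophages against 5.26 in fetal liver monocytes (adjusted p = 3.04e-15).

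Over transfer from yolk sac, 3 ligands were higher and 7 lower, against 19.6% and 23.2% of all genes. Their median was -2.02, or -1.29 with group means below the table median raised to it. Ccl7, Ccl12 and Ppbp, which passed the filter through the yolk sac arrays, were among the 7 lower, so their fall was set in advance. Ccl2 averaged 5.82 in YS-derived macrophages against 12.36 in yolk sac macrophages (limma, adjusted p = 1.04e-18), and Cxcl2 averaged 5.92 in YS-derived against 12.02 in yolk sac macrophages (adjusted p = 3.05e-14). From fetal liver 3 were higher and 1 lower (median -0.01), against 20.4% and 18% of all genes. From bone marrow 5 were higher and 2 lower (median 0.44, or 0.24 with the same floor), against 20.3% and 16.1%. Ccl6, a Ccr1 ligand, rose from all 3 origins, by 4.78 from yolk sac (adjusted p = 5.12e-23), 2.21 from fetal liver (adjusted p = 9.91e-14) and 0.95 from bone marrow (adjusted p = 7.72e-06). Cx3cl1, the ligand of Cx3cr1, also rose from all 3, by 1.62 from yolk sac, at least 1.88 from fetal liver, where the monocytes lay below the table median, and 1.47 from bone marrow, while Cx3cr1 fell. Cxcl12 and Cxcl5 did not pass the filter on dim probe sets. Against native 6-week macrophages, Ccl9 was higher in YS-derived (1.78 ± 0.32, adjusted p = 0.000605) and AM-derived macrophages (1.45 ± 0.32, adjusted p = 0.0128), and Ccl3 in YS-derived ones (1.48 ± 0.39, adjusted p = 0.0341).

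Of 26 genes of signalling below chemokine receptors 24 were tested. Over transfer 8 were higher and 6 lower from yolk sac (median 0.01), against 19.6% and 23.2% of all genes. From fetal liver 8 were higher and 8 lower (median -0.02), against 20.4% and 18%, and from bone marrow 6 and 9 (median -0.21), against 20.3% and 16.1%. Rgs18, which shortens G protein signals, averaged 2.77 in YS-derived macrophages against 5.43 in yolk sac macrophages, 2.84 in FL-derived against 8.27 in fetal liver monocytes, and 2.88 in BM-derived against 7.95 in bone marrow monocytes (limma, adjusted p = 2.24e-14, 1.03e-22 and 7.36e-22). The group means of Rgs18 lay above the table median only in the 3 precursors. It passed the filter through them, so its falls, counted above among the lower, were set in advance. With the means after transfer raised to the table median, its log2 differences were -0.8 from yolk sac, -3.64 from fetal liver and -3.33 from bone marrow. Plcb2, a phospholipase activated by G proteins, rose by 2.55, 1.41 and 1.82 from the same 3 origins. Gng2, a G protein gamma subunit, changed by -2.44, -1.99 and -1.78. Against native 6-week macrophages, Grk3, a kinase that phosphorylates activated G protein-coupled receptors, was below the table median in YS-derived, FL-derived and BM-derived macrophages, at 4.02, 4.48 and 4.04, against 5.31 in the native ones. It was thus at least 1.61-fold lower in each (adjusted p = 8.59e-05, 0.029 and 0.00018).

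Of 10 receptors of other attractants 8 were tested. Ltb4r1, the leukotriene B4 receptor, averaged 3.89 in FL-derived macrophages against 9.3 in fetal liver monocytes and 3.89 in BM-derived macrophages against 8.81 in bone marrow monocytes (limma, adjusted p = 3.89e-25 and 5.69e-24). With the means after transfer below the table median, its falls were at least 25.6-fold and 18.2-fold. C5ar1, the receptor of complement fragment C5a, moved the other way, by 2.11 from fetal liver (adjusted p = 7.23e-12) and 3.44 from bone marrow (adjusted p = 2.23e-17). From yolk sac it changed by -0.06 ± 0.18 (adjusted p = 0.81), while C3ar1 averaged 5.18 in YS-derived against 11.46 in yolk sac macrophages (adjusted p = 4.95e-17). Counted over transfer, 0 were higher and 5 lower from yolk sac, against 19.6% and 23.2% of all genes, with a median of -1.86, or -1.35 with group means below the table median raised to it. From fetal liver 2 were higher and 4 lower (median -0.37, or -0.15 with that floor), against 20.4% and 18% of all genes. From bone marrow 2 were higher and 4 lower (median -0.5, or -0.36 with that floor), against 20.3% and 16.1%. Among the 5 lower from yolk sac was S1pr1, whose group means lay above the table median only in yolk sac macrophages (6.11). It passed the filter through that group, so its fall was set in advance. Ltb4r1, among the 4 lower from each monocyte, likewise had group means above the table median only in the 2 monocytes. Cmklr1, among the lower from yolk sac and from each monocyte, had group means above it only in those precursors. The falls of Ltb4r1 and Cmklr1 were thus set in advance too.

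**Figure D4:**
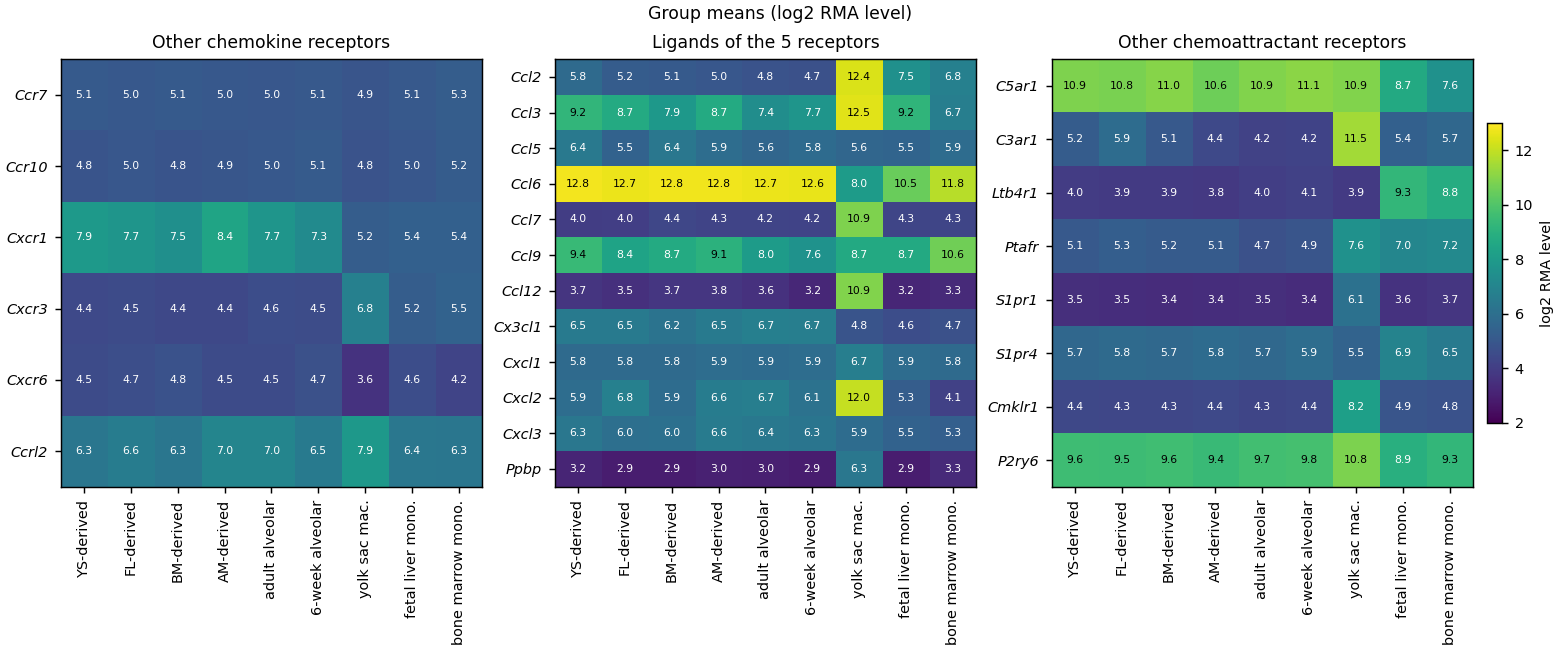
Mean log2 intensity per group of 6 other chemokine receptors, 12 ligands and 8 receptors of other attractants that passed the filter on dim probe sets. Cxcr1 is higher in the 6 alveolar groups than in the 3 precursors, and Ccl2, Ccl7, Ccl12 and Cxcl2 are highest in yolk sac macrophages.

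Genes whose pattern was most like each receptor were ranked by Pearson's r over the 36 arrays, which share their groups, and r is given as a description. For Ccr2 they were C1galt1c1 (0.979), Ly6a2 (0.975), the haptoglobin gene Hp (0.972), Ifitm6 (0.968) and Pglyrp1 (0.967), which encodes a bacterial peptidoglycan recognition protein. For Cx3cr1 they were Abca9 (0.987), Ms4a4a (0.98), Lifr (0.968), Ninj1 (0.96) and Tmem176b (0.958). Ccr1 came with Glrx (0.822), Stfa2 (0.787), Stfa3 (0.77), Csta3 (0.768) and Penk (0.762). Cxcr2 came with the fatty acid desaturase gene Scd2 (0.774), Penk (0.752), the triglyceride synthesis gene Dgat1 (0.726), Il1f9 (0.722) and Ero1a (0.707). Cxcr4 came with Tmsb10 (0.896), Irak3 (0.895), Glipr2 (0.882), Me2 (0.879) and Tuba4a (0.877). Penk stands in the lists of both Ccr1 and Cxcr2.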

How the data were processed

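RNA of sorted cells was amplified and hybridised to 36 Affymetrix whole-transcript arrays. The deposited table holds log2 intensities of 35556 probe sets, which the authors made with RMA, of unstated version, per the submitters' processing notes. RMA gives all arrays a common distribution, so that a shift shared by most genes is removed and small differences of dim genes are compressed. Of the probe sets, 21789 had 1 gene symbol in the platform annotation, 1621 had several and 12146 no entry. Only the first were used, with symbols updated through RefSeq GRCm38.p6 (21698 matched, while 91 stayed as they were). The brightest probe set stood for each of 999 genes that had more than 1, and 12244 of 19938 genes exceeded the table median of 4.623 in at least 4 arrays and were tested. There were 0 columns from outside the series and 0 pairs of identical arrays.

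A model with a mean for each group used all 36 arrays (limma version 3.58.1, R version 4.3.3, functions lmFit and eBayes, 27 residual degrees of freedom), with Benjamini-Hochberg adjustment within each of 18 comparisons and 3 differences of change. Folds marked "at least" put the lower group at the table median. The labels do not say whether replicates were separate animals, so p-values measure the spread between these samples. The number of arrays limits the precision. No slide or scan date was given to test as a batch.

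The genes named are the 5 receptors, the 5 genes most like each by Pearson's r (without predicted and small RNA genes), and members of 4 gene lists with the lowest adjusted p. The members and lists were chosen with earlier results of these data known. Alternatives were no filter and a stricter one (9207 genes), median-centred arrays, a trended prior, array weights, the replicate number as a block, a fit to the compared groups alone, and each replicate left out. The fit was also run on simulated data of 12244 genes. In YS-derived against yolk sac macrophages it recovered 93% of genes changed by a log2 of 1 and 100% of those changed by 2. In FL-derived against native 6-week macrophages it recovered 88% and 100%. False calls numbered 9 and 5. These are shares over the genes of that data, and whether they hold for the measured comparisons of the same name was not tested. Whether 93% and 88% differ was not tested. Recovery of Cxcr2, with the largest SE of the 5 receptors (0.4), was not tested either. Its log2 differences over native 6-week macrophages, 1.32 in YS-derived and 1.41 in AM-derived ones, were not called (limma, adjusted p = 0.103 and 0.0976).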

Additional observations from a re-analysis of the deposited data

Results flagged for a closer look

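Of 45 sets of 4 arrays (5 receptors in 9 groups), 2 held an array apart from the other 3 by Dixon's criterion, which chance gives in about 1 in 20. Ccr1 was 8.53 in BM-derived replicate 1, against 7.87 to 7.91 in the other 3. Cx3cr1 was 5.37 in native 6-week replicate 4, against 5.83 to 5.89 in the other 3.

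The change over transfer differed between origins in 10 of 15 tests of the difference itself (limma). Between yolk sac and fetal liver origin it differed for all 5 receptors, where 22.9% of all genes differed: by 1.62 for Ccr1, 6.47 for Ccr2, -3.54 for Cx3cr1, 3.2 for Cxcr2 and 2.81 for Cxcr4 on the log2 scale. Between yolk sac and bone marrow origin it differed for 2 of 5, by 7.12 for Ccr2 (adjusted p = 3.57e-19) and 2.91 for Cxcr4 (adjusted p = 2e-06), where 30.6% of all genes differed. Between fetal liver and bone marrow origin it differed for 3 of 5, by -1.21 for Ccr1, 2.91 for Cx3cr1 and -2.97 for Cxcr2, where 9.94% of all genes differed. The Ccr2 values rest on yolk sac macrophages below the table median and come to 5.9 and 6.55 with that group counted at the median, and the Cxcr2 value of -2.97 rests on bone marrow monocytes below it and comes to -2.78. Each change is taken from its own precursor, and 0 of 30 differences between derived groups passed. These values thus largely repeat the precursor differences with the sign turned. Yolk sac macrophages minus fetal liver monocytes gave -1.83 for Ccr1, 3.58 for Cx3cr1, -3.55 for Cxcr2 and -2.87 for Cxcr4. For Ccr2 it gave -6.66, or -6.09 with yolk sac macrophages counted at the table median.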

How the results depend on the processing

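Each of 105 receptor results (5 receptors in 21 comparisons) and 21 counts of genes called was recomputed under every alternative, and 0 reversed. The stricter filter and the trended prior changed 0 receptor calls. Without a filter the Cxcr2 difference of FL-derived from fetal liver was -1.04 and lost its call (limma, adjusted p = 0.0584), as it did with array weights (-0.92, adjusted p = 0.0645). Array weights gained calls for Cxcr2 over native 6-week macrophages in YS-derived (1.35, adjusted p = 0.044) and AM-derived ones (1.42, adjusted p = 0.0475), and for the Cx3cr1 difference of the yolk sac and bone marrow changes (-0.76, adjusted p = 0.0283), as did centring (-0.75, adjusted p = 0.0438). Fitting the compared groups alone gained Ccr1 in yolk sac macrophages against bone marrow monocytes (-0.43) and Cxcr4 over transfer from fetal liver (-0.62) and bone marrow (-0.72), and lost Cxcr2 in FL-derived against native 6-week macrophages (1.67). It also lowered gene counts to 45 (86 over all arrays) for AM-derived against adult, 74 (128) for FL-derived against 6-week, 9 (33) for YS-derived against FL-derived, 63 (102) for YS-derived and 13 (51) for FL-derived against BM-derived, 15 (41) for FL-derived and 32 (52) for BM-derived against AM-derived, and 0 (2) for adult against 6-week macrophages. Leaving out 1 replicate kept the call in 941 of 960 receptor fits. The log2 differences that changed call ranged from 0.5 to 0.69 (Ccr1, YS-derived against yolk sac), -1.28 to -0.62 (Cxcr2, FL-derived against fetal liver), 1.25 to 1.75 (Cxcr2, AM-derived against adult), 1.02 to 1.66 and 1.43 to 2.08 (Cxcr2, YS-derived and FL-derived against 6-week), -0.86 to -0.45 (Cx3cr1, yolk sac minus bone marrow change) and 0.42 to 0.9 (Ccr2, fetal liver minus bone marrow change, called without FL-derived replicate 3). The Cxcr4 differences that rest on yolk sac macrophages kept their calls and ranged over -3.46 to -2.45 against fetal liver, -3.65 to -2.64 against bone marrow and 1.77 to 2.78 over transfer. Gene counts ranged from 29 to 53 for BM-derived against AM-derived and from 1 to 5 for adult against 6-week macrophages. The cause of these changes was not tested. Replicate numbers showed no pairing common to the comparisons: 11 of 72 pairs of arrays with the same number correlated above 0.1 (range -0.23 to 0.42). Of the 72, 18 correlated best with their own number, out of 4 candidate arrays each. In BM-derived macrophages against bone marrow monocytes every array did so, at r from 0.03 to 0.13. The highest r, 0.42, was in AM-derived against adult macrophages, so pairing within a single comparison is not excluded. With the replicate block 0 of 105 receptor calls changed, and Cxcr2 in FL-derived against 6-week macrophages stayed at 1.67 (adjusted p = 0.0238). The receptors had no second probe set to try. Levels below the table median have no reliable order.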
